A study of Mus musculus with 64 samples.

Results

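LEF1 binding was compared between SOX2-ON and SOX2-OFF cells in the 6 LEF1 immunoprecipitated (IP) libraries of the SOX2-TetON mouse embryonic stem cell line. There were 3 biological replicates per condition, out of 60 IP libraries with a peak list and 64 samples in the series. They were chosen by their labels alone: an antibody against LEF1, the SOX2-TetON line, and doxycycline (Dox) kept or withdrawn. ChIP-seq recovers the DNA fragments cross-linked to a protein and locates them in the genome as peaks. The other libraries mapped SOX2, β-catenin, TCF7L1 and TCF7L2 in the same cells, and all 5 proteins in naive embryonic stem cells (naive ESC) and caudal epiblast-like cells (CEpiLC) of the wild-type (WT) line. Naive ESC had been reverted in 2i medium, which holds inhibitors of GSK3 and MEK, and CEpiLC had been differentiated with FGF, LGK974 and CHIR99021 in the way given next, without Dox.

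Both conditions shared the XY HM1 (129) strain and the genotype Sox2-/-. The only intact Sox2 was a Dox-inducible transgene in the HPRT locus of cells that make the rtTA activator from the Rosa26 locus. The cells had been kept in Dox at 1 µg/ml, then differentiated for 72 h in FGF with LGK974, which blocks WNT secretion, with the GSK3 inhibitor CHIR99021 added after day 2 to switch on the WNT pathway. Dox was kept throughout in SOX2-ON and withdrawn during differentiation in SOX2-OFF. All 6 cultures came from a single engineered line, so differences between lines of this genotype could not be seen. The replicates of a condition came from separate experiments on that line, per the methods of the study.

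LEF1 is a DNA-binding protein of the TCF/LEF family. When WNT signalling stabilises β-catenin, these proteins hold it at target genes through a single HMG box that reads the letters CTTTGAA or CTTTGAT. SOX2, a pluripotency and neural factor, also has an HMG box and reads the related letters CATTGT or CTTTGT. In the primitive streak and caudal epiblast the WNT pathway drives mesoderm genes such as T/Bra and Cdx, while in naive cells it supports pluripotency genes.

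Because the lists differed in length, the 4443 peaks with the highest −log10 p were used from each LEF1 library, the length of the shortest of the 12 LEF1 lists. Overlapping peaks (by 1 bp or more) of the 6 libraries were joined into 21699 sites. A site with a peak in all 3 SOX2-ON libraries and in no SOX2-OFF library is called SOX2-ON-only, the reverse SOX2-OFF-only, and a site with a peak in all 6 shared. Each rule asked for agreement of all libraries, and the words refer to these equal-length lists.

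The strongest sites of each kind show which letters lay under the summits. The 101-base windows below are centred on the summit and come from the GRCm38 (mm10) reference, plus strand unless stated, each named after the nearest start of a protein-coding gene. They are the 5 SOX2-ON-only and then the 5 SOX2-OFF-only sites of highest median rank among those with no peak in any full list of the other condition. Capitals mark TCF letters (CTTTGAA or CTTTGAT) and SOX letters (CATTGT or CTTTGT) on either strand, so ATCAAAG or TTCAAAG is a TCF match and ACAAAG or ACAATG a SOX match.
Pax9: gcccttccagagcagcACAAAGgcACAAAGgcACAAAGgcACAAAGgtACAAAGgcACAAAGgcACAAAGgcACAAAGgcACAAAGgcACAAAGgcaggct
Trim42: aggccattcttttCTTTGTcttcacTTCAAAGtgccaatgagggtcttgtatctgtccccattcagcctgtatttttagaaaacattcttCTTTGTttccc
Plxnd1: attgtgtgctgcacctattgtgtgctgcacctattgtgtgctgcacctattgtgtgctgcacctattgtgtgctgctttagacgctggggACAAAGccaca
Slc25a40: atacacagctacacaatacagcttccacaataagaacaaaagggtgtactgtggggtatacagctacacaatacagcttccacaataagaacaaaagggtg
Pdzrn3: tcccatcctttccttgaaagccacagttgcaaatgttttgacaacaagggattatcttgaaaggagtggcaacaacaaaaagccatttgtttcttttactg
Insr: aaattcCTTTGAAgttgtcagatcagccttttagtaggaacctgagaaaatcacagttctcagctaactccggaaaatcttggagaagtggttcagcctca
Scn4b: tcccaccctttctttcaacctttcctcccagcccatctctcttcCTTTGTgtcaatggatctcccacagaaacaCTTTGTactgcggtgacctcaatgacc
Zfand6: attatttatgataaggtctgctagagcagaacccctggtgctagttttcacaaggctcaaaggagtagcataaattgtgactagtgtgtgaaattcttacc
Hebp2: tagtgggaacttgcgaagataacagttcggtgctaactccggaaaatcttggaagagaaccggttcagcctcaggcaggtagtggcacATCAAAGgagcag
Vmn2r26: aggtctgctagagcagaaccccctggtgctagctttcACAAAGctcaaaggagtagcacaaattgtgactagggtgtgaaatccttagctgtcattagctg

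The SOX2-ON-only windows were chr12:56887486-56887586 in an intron 196 kb from Pax9, chr9:97477156-97477256 in an intron 107 kb from Trim42 and chr6:116012100-116012200 between genes 17.1 kb from Plxnd1. The remaining SOX2-ON-only windows were chr5:8488981-8489081 between genes 66.2 kb from Slc25a40 and chr6:101268355-101268455 in an intron 109 kb from Pdzrn3. The Pax9 window held 10 SOX matches in a tandem array and no TCF match. Peaks there ranked 17, 1 and 3 in the SOX2-ON libraries, with deposited folds over local background of 76.8, 152 and 92.4, and no SOX2-OFF list held a peak. At Trim42 the window joined 2 SOX matches and 1 TCF match, and the SOX2-ON folds were 37.6, 60 and 81.4. The Plxnd1 and Slc25a40 windows were also tandem arrays, with folds of 32.3 to 50.4 and of 24.2 to 51.3. Reads from a tandem array can be placed in more than 1 unit, and the handling of such reads is not given in the sources used here.

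The SOX2-OFF-only windows were chr8:3106522-3106622 (minus strand), chr9:45159856-45159956 and chr7:84754664-84754764, each between genes at 173, 21.5 and 64.8 kb from the starts of Insr, Scn4b and Zfand6. The Hebp2 window, chr10:18489388-18489488, lay in an intron 56.6 kb from that start, and the Vmn2r26 window, chr6:124054474-124054574 (minus strand), in an intron 30 kb from its start. Their folds were mostly lower than those of the SOX2-ON-only sites above. At Insr the SOX2-OFF folds were 18.4, 8.56 and 19, and at Vmn2r26 they were 10.8, 7.95 and 34.7. Insr and Hebp2 belonged to a first group of sites with shared sequence, and Zfand6 and Vmn2r26 to a second, both described further on.

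The lists differed far more within conditions than between them. SOX2-ON libraries had 321099, 124700 and 991719 peaks, and SOX2-OFF libraries had 403114, 17493 and 326376. On the log10 scale the difference was 0.41, with p = 0.7 by two-sided exact permutation over libraries, where 3 against 3 libraries cannot go below 0.1. SOX2-OFF replicate 2 was the weakest of the 6, with a median fold of 6.11 over the peaks used against 9.54 to 12.6 elsewhere. The lowest −log10 p used was 8.15 in that library and 14.5 to 21.9 in the rest. Replicate 1 of both conditions held 21 of its used peaks over coding exons of Tfap2a, Tfap2c, Tcf7l1 and Tcf7l2, with folds up to 363 and 262. SOX2-ON replicate 3 held 6 such peaks and the other libraries 0, and none of the 21 merged sites on those exons was SOX2-ON-only, SOX2-OFF-only or shared. The peak lists give no counts of reads, so the read depth of each library is unknown.

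The labels were checked by sequence. TCF letters lay within 100 bp of the summit of 23.1%, 29.6% and 24.2% of the peaks used in SOX2-ON and of 25.7%, 25.1% and 35.3% in SOX2-OFF. Windows of the same length 5000 bp away held them in 8.28% to 9.52%, so all 6 LEF1 lists were enriched for the letters of their target. In the SOX2 libraries, SOX letters lay in 61.4%, 62.1% and 58.3% of the SOX2-ON peaks and in 33.2%, 35% and 34.4% of the SOX2-OFF peaks, against 25.9% to 27.7% in the background. The Dox labels and the SOX2 signal therefore went in the same direction, and SOX2-OFF lists kept a share above their background.

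**Figure D1:**
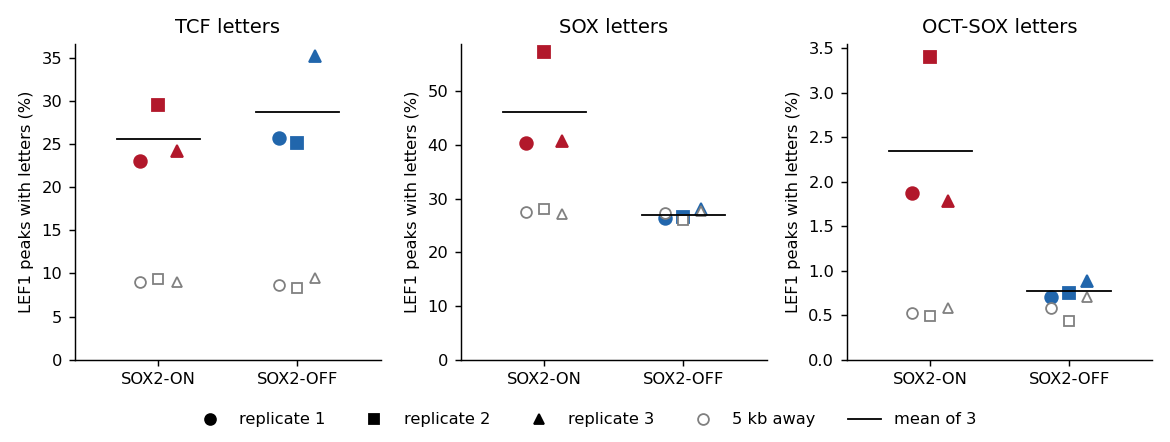
Percent of the 4443 strongest LEF1 peaks of each library with a set of letters within 100 bp of the summit, 1 point per library (red SOX2-ON, blue SOX2-OFF, shape by replicate), with the background windows 5000 bp away. SOX letters sit at 40.4% to 57.3% in SOX2-ON and at 26.4% to 28% in SOX2-OFF, while the TCF shares of the conditions overlap.

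LEF1 peaks of SOX2-ON cells carried SOX letters above the background, and those of SOX2-OFF cells held them at about the background share. SOX letters lay near 40.4%, 57.3% and 40.8% of the SOX2-ON summits and near 26.4%, 26.5% and 28% of the SOX2-OFF summits, with backgrounds of 26.1% to 28%. All 3 SOX2-ON libraries were above all 3 SOX2-OFF libraries, a difference of 19.2 percentage points between 46.2% ± 9.61 and 27% ± 0.899 (SD, n = 3). The two-sided exact permutation p was 0.1, the smallest possible, and 0.2 after Benjamini-Hochberg adjustment over 8 motif families. With all deposited peaks the difference was 1.77 points (exact permutation p = 0.1).

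TCF letters did not separate the conditions over the whole list. Means were 25.6% (SOX2-ON) and 28.7% (SOX2-OFF), a difference of −3.05 points with exact permutation p = 0.5. Without SOX2-OFF replicate 3 the difference was 0.25, so its sign rested on 1 library. The top of the lists looked different: among the 250 strongest peaks TCF letters lay in 48.4%, 47.6% and 54.8% for SOX2-ON and in 67.2%, 83.6% and 79.2% for SOX2-OFF. SOX letters ran the other way there, with 60%, 70.8% and 60% for SOX2-ON and 22.8%, 24% and 27.6% for SOX2-OFF. In neither set of 250 peaks did the conditions overlap.

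The composite letters TTGTNATGC, read by OCT4 beside SOX2 and able to overlap a SOX match, were rarer but split in the same way. Their shares were 1.87%, 3.4% and 1.78% in SOX2-ON and 0.698%, 0.743% and 0.878% in SOX2-OFF. Letters of KLF factors (GGGTGTGG) were lower in SOX2-ON, with means of 1.17% and 1.89%. Letters of CDX and posterior HOX factors (TTTATGG or TTTATTG) were higher in SOX2-ON, at 6.64% and 5.72%, and below their backgrounds of 8.29% and 7.94%. Each of these 3 families had no overlap between conditions in its share, exact permutation p = 0.1 and adjusted p = 0.2. As ratios to the background of each library, the CDX shares did overlap, at 0.812, 0.767 and 0.826 in SOX2-ON and 0.701, 0.769 and 0.694 in SOX2-OFF. Letters of T/BRA (AGGTGTGA) gave p = 0.2, and those of ESRRB (TCAAGGTCA) and FOXH1 (AATCCACA) gave p = 0.6, in the same exact permutation test. Where letters of several families fell in a window, each family was counted.

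**Figure D2:**
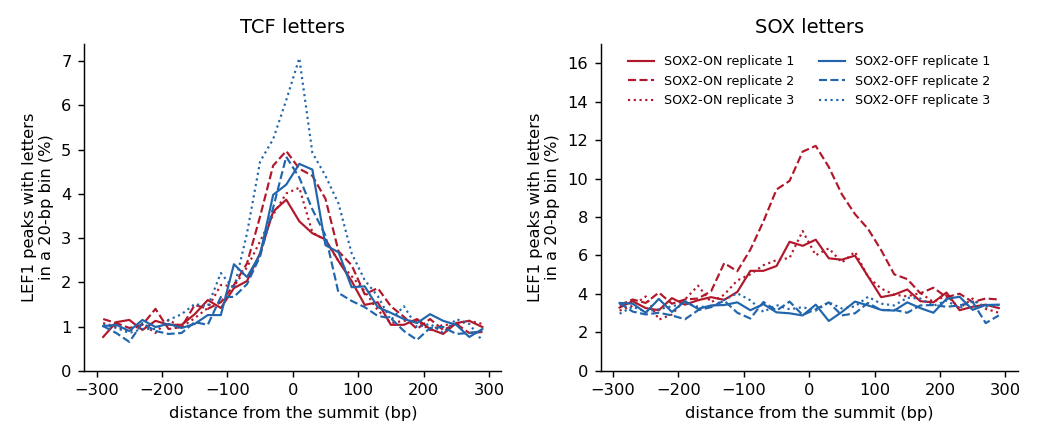
Percent of LEF1 peaks with TCF letters and with SOX letters in bins of distance (bp) from the summit, 1 line per library (red SOX2-ON, blue SOX2-OFF). TCF letters peak at the summit in both conditions, and SOX letters peak there in the SOX2-ON libraries.

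LEF1 sites were shared more among replicates than between conditions. The Jaccard index, the base pairs covered by both lists over those covered by either, averaged 0.122 within SOX2-ON, 0.0886 within SOX2-OFF and 0.0493 between conditions, where single pairs ranged from 0.036 to 0.0616. Every pair within a condition was above every pair between conditions. The mean within minus the mean between was 0.0557, with one-sided exact permutation p = 0.1, the smallest that the 10 distinct groupings allow. With all deposited peaks it was 0.00158 and exact permutation p = 0.3.

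Most sites were seen in 1 library: 19050 of 21699, or 87.8%. The 628 sites of all 3 SOX2-ON libraries comprised 356 SOX2-ON-only sites (56.7%) and 143 shared sites (22.8%). The 492 sites of all 3 SOX2-OFF libraries comprised 148 SOX2-OFF-only sites (30.1%) and the same 143 shared sites (29.1%). SOX2-ON-only sites were thus 1.64% and SOX2-OFF-only sites 0.682% of all merged sites. Leaving out a library asks fewer libraries to agree and so raises these counts. SOX2-ON-only sites numbered 644 without SOX2-ON replicate 1 and 686 without SOX2-ON replicate 3, and SOX2-OFF-only sites numbered 250 without SOX2-OFF replicate 1 and 356 without SOX2-OFF replicate 2.

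The full lists told the kinds apart. Of the SOX2-ON-only sites, 28.1%, 5.9% and 32% had a weaker peak in the full SOX2-OFF lists, and 185 (52%) had none in any. Of the SOX2-OFF-only sites, 52.7%, 52% and 81.8% had a weaker peak in the full SOX2-ON lists, 37 (25%) had one in all 3, and 11 (7.43%) had none. The shortest SOX2-OFF list held 17493 peaks and the longest SOX2-ON list 991719, so the chance of a weaker match was not equal on both sides. Most SOX2-OFF-only sites thus had a weaker peak in at least 1 full SOX2-ON list, and most also lacked one in at least 1.

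**Figure D3:**
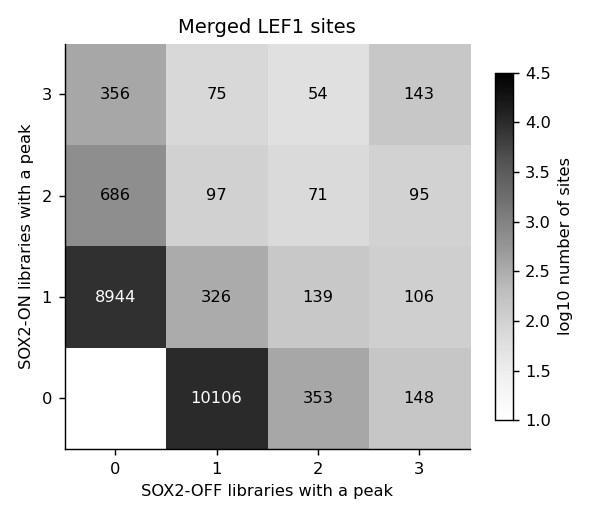
Number of merged LEF1 sites by how many SOX2-ON libraries (0 to 3) and how many SOX2-OFF libraries (0 to 3) had a peak among their 4443 strongest. The corners hold 356 SOX2-ON-only, 148 SOX2-OFF-only and 143 shared sites, and most sites had a peak in a single library.

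The letters under the sites differed by kind. SOX letters lay in 263 of 356 SOX2-ON-only sites (73.9%), 27 of 148 SOX2-OFF-only sites (18.2%) and 56 of 143 shared sites (39.2%), against 34.4% of all merged sites. TCF letters lay in 142 SOX2-ON-only sites (39.9%), 120 SOX2-OFF-only sites (81.1%) and 106 shared sites (74.1%), against 20.5% of all merged sites. The letters CATTGT, which differ more from the TCF letters than CTTTGT does, were nearly absent from SOX2-OFF-only sites: they lay in 145 SOX2-ON-only sites (40.7%), 1 SOX2-OFF-only site (0.676%) and 18 shared sites (12.6%). Background windows of the SOX2-OFF-only sites held CATTGT in 14.9%. Sites are not replicates, so these shares are given without a test.

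SOX and TCF letters were mixed in different ways. Among SOX2-ON-only sites 159 had SOX letters without TCF letters, 104 had both, 38 had TCF letters without SOX letters and 55 had neither. Among SOX2-OFF-only sites these numbers were 9, 18, 102 and 19. Where both occurred, the nearest pair was at a median distance of 34 bp in SOX2-ON-only sites, 70 bp in SOX2-OFF-only sites and 64.5 bp in shared sites. The pair lay within 15 bp in 18 of the 104 SOX2-ON-only, 5 of the 18 SOX2-OFF-only and 7 of the 41 shared sites with both. Close pairs were thus a minority of the sites with both in each kind, and the counts are too small to rank the kinds.

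All kinds of site lay mostly away from promoters. Only 6 SOX2-ON-only, 4 SOX2-OFF-only and 5 shared sites were within 1 kb of the start of a protein-coding gene. The median distance to a start was 73.9, 54.9 and 37.5 kb, and 57.6%, 67.6% and 55.2% of the sites lay between genes. SOX2-ON-only windows had a lower GC content, with a median of 44.3% against 49.8% and 48.8%. Over the whole lists, promoters held 2.57%, 2.86% and 2.25% of the SOX2-ON peaks and 2.93%, 5.2% and 3.2% of the SOX2-OFF peaks. All SOX2-ON values were lower (exact permutation p = 0.1), and SOX2-OFF replicate 2, the weakest list, was the highest. The difference of −1.22 points was −0.503 without that library (exact permutation p = 0.2), −0.63 with peaks ranked by fold (p = 0.3) and −0.124 with the shortest of the 6 lists as the common length (p = 0.8), so the separation was not kept.

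Many SOX2-OFF-only sites shared stretches of sequence with each other. Sites were grouped, after the letters had been seen, by 16-base words found in several of them. A first group of 65 SOX2-OFF-only sites (43.9%) had TCF letters in 63 and SOX letters in 4, and a second of 28 sites (18.9%) had TCF letters in 18 and SOX letters in 9. A group of 32 SOX2-ON-only sites (8.99%) had SOX letters in 21, of which 20 had CATTGT, and TCF letters in 2. A member of each is given here: Ahr, in the SOX2-ON group, from chr12:35642687-35642787 (minus strand), Cpa6, in the first SOX2-OFF group, from chr1:10603579-10603679 (minus strand), and Htr2a, in the second SOX2-OFF group, from chr14:74263629-74263729 (minus strand). They were picked after their values had been seen, capitals are as above, and the capitals at Ahr also cover a TTGTNATGC match. The Cpa6 and Htr2a windows hold the word that is counted for their group in the next paragraphs, and the Ahr window does not.
Ahr: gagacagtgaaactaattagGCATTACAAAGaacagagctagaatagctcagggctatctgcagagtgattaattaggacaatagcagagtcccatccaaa
Cpa6: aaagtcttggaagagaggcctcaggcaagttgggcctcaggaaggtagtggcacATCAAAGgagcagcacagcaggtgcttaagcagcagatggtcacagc
Htr2a: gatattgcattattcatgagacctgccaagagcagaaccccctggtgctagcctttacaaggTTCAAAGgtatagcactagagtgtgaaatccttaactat

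The Ahr site ranked 66, 26 and 12 in SOX2-ON, with folds of 29.4, 45.4 and 56.7, and had 1 weak peak at rank 182991 in the full list of SOX2-OFF replicate 1. The Cpa6 site ranked 45, 50 and 10 in SOX2-OFF, with folds of 49.4, 18.3 and 84.6, against ranks of 6841, 65893 and 26231 in SOX2-ON. At Htr2a the SOX2-OFF folds were 22.5, 19.3 and 64.1 and the SOX2-ON folds 4.69, 7.33 and 9.91. The groups thus included some of the strongest sites of each condition. The SOX2-OFF sequences were not confined to differential sites. Recurring words of the first and second SOX2-OFF groups also lay in 13 and 8 of the 143 shared sites. A further group of 13 shared sites (9.09%) had recurring words that lay in 53 SOX2-OFF-only sites.

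The commonest word of each group was then looked up in the whole genome, so that copies that no list had chosen could be counted too. The word AGCAGCACAGCAGGTG of the first SOX2-OFF group had 281 copies. A LEF1 peak lay on 7.47%, 12.8% and 13.5% of them in SOX2-ON and on 44.1%, 37% and 51.2% in SOX2-OFF. The word ACCCCCTGGTGCTAGC of the second SOX2-OFF group had 247 copies, with LEF1 peaks on 6.07%, 13% and 9.31% in SOX2-ON and on 30%, 23.5% and 42.9% in SOX2-OFF. The word ATGAAAGAGTTAGGGA of the SOX2-ON group had 177 copies, with LEF1 peaks on 20.9%, 39.5% and 20.9% in SOX2-ON and on 3.95%, 4.52% and 4.52% in SOX2-OFF. These LEF1 values describe the libraries that chose the words and are not a test.

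Copies near-identical to each other can exchange reads, which was not tested here. No annotation of repeats was used, so the groups carry no family name. A median of 84.1% of the window was soft-masked as repeat in the SOX2-ON group and 56.2% and 93.5% in the SOX2-OFF groups. Without the groups, 324 SOX2-ON-only sites (TCF letters in 43.2%, SOX letters in 74.7%) and 55 SOX2-OFF-only sites (70.9% and 25.5%) were left. CATTGT then lay in 125 of the 324 and in 1 of the 55. The SOX2-OFF-only count was the one that rested on the groups.

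Libraries of other proteins took no part in choosing the words. The copies still included those at the sites that gave each word: 33 and 20 sites for the SOX2-OFF words and 17 for the SOX2-ON word. LEF1 in SOX2-ON and SOX2-OFF had chosen those sites. The SOX2-TetON part of the comparison is therefore not independent of that choice, and only the WT libraries lie outside it. The 4 other proteins were compared between high SOX2 (naive ESC and SOX2-ON) and low SOX2 (CEpiLC and SOX2-OFF), by exact permutation within each line. In the WT line the SOX2 level cannot be told apart from the medium and the cell state. In the SOX2-TetON line it cannot be told apart from the cell state, which also differed. An exact permutation of SOX2-ON against SOX2-OFF alone cannot go below p = 0.1. β-catenin peaks lay on 29.9%, 29.4% and 29.9% of the copies of the SOX2-ON word in SOX2-ON and on 7.34%, 9.04% and 6.78% in SOX2-OFF, and the high minus low SOX2 difference over both lines was 18 points. For the SOX2-OFF words the β-catenin difference was −26.2 and −37.9 points. Each of the 3 had exact permutation p = 0.005, the smallest possible, and adjusted p = 0.0075 over 12 tests. The other 9 tests, of SOX2, TCF7L1 and TCF7L2, went the same way for each word in the mean, with adjusted exact permutation p up to 0.03. Single libraries could differ: TCF7L1 of CEpiLC replicate 1 lay on 12.8% of the copies of the first SOX2-OFF word, against 22.1% to 25.6% in naive ESC. The replicates of a condition did not overlap those of the other in the β-catenin libraries of the SOX2-TetON line.

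In the WT line LEF1 itself differed on the SOX2-OFF words. Copies of the first word had LEF1 peaks in 40.9%, 53.4% and 56.6% in CEpiLC and in 0.712%, 27.8% and 13.5% in naive ESC, and copies of the second in 26.3%, 42.5% and 35.6% and in 0%, 2.43% and 0.405%. Both had exact permutation p = 0.1, the smallest possible. The SOX2-ON word gave 1.13%, 23.2% and 6.21% in naive ESC and 2.82%, 4.52% and 2.26% in CEpiLC (exact permutation p = 0.5). Naive ESC replicate 1 stood apart, since TCF letters lay in 8.19% of its LEF1 peaks against a background of 8.51%. The other naive ESC libraries had 41.8% and 20.5%, and CEpiLC 60.6%, 60.2% and 63.8%.

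**Figure D4:**
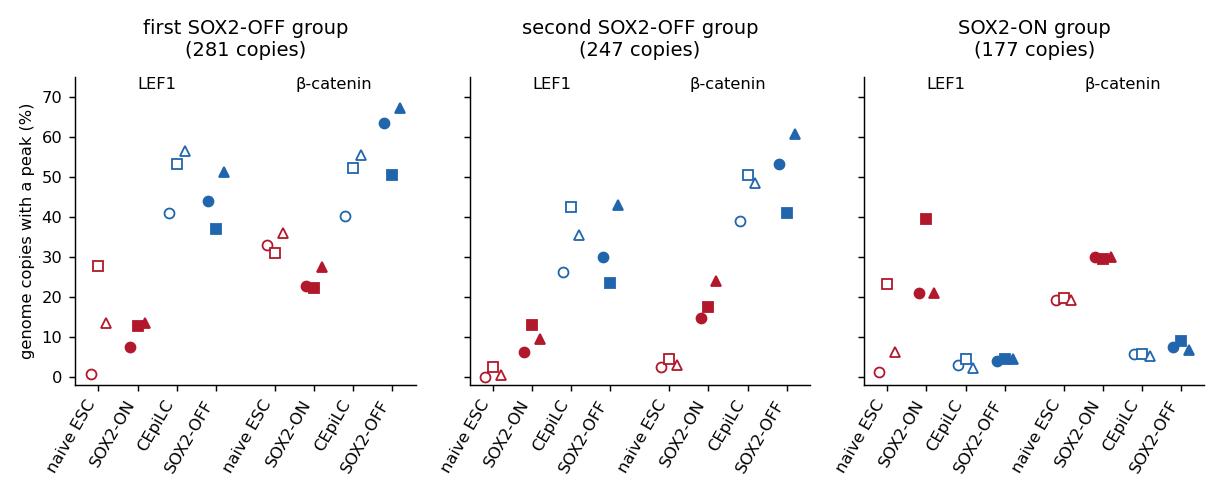
Percent of the genome-wide copies of the 16-base words of the SOX2-OFF and SOX2-ON groups with a peak of LEF1 or of β-catenin, 1 point per library (red high SOX2: open naive ESC, filled SOX2-ON; blue low SOX2: open CEpiLC, filled SOX2-OFF; circle, square and triangle for replicates 1, 2 and 3). For β-catenin, all low-SOX2 libraries lie above all high-SOX2 libraries on the 2 SOX2-OFF words (281 and 247 copies) and below them on the SOX2-ON word (177 copies). LEF1 of naive ESC replicate 1 on the SOX2-ON word (1.13%) is a point that goes against this order.

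SOX2 and β-catenin of SOX2-ON lay on most SOX2-ON-only sites, and β-catenin of SOX2-OFF lay on most SOX2-OFF-only sites. SOX2 peaks of the SOX2-ON libraries, from 20000 per library, overlapped 98.6%, 96.6% and 96.9% of the SOX2-ON-only LEF1 sites and 14.9%, 11.5% and 17.6% of the SOX2-OFF-only sites. They overlapped 17.8%, 17.1% and 18% of all merged sites, close to the SOX2-OFF-only values. β-catenin peaks of the SOX2-ON libraries overlapped 91.9%, 92.4% and 84% of the SOX2-ON-only sites. β-catenin peaks of the SOX2-OFF libraries overlapped 98%, 93.2% and 97.3% of the SOX2-OFF-only sites and 15.4%, 21.1% and 16.3% of the SOX2-ON-only sites. Among all merged sites β-catenin peaks of this line overlapped 8.54% to 11.8%. SOX2 peaks of the SOX2-OFF libraries also lay on 70.3%, 44.6% and 88.5% of the SOX2-OFF-only sites. On SOX2-ON-only sites they lay at 29.2%, 36.5% and 42.7%, against 9.29% to 13.8% of all merged sites. TCF7L1 of SOX2-ON overlapped 36%, 73% and 75.3% of the SOX2-ON-only sites, and TCF7L2 30.3%, 35.7% and 34.6%. In SOX2-OFF these proteins overlapped 74.3%, 67.6% and 87.2% and 28.4%, 36.5% and 43.2% of the SOX2-OFF-only sites. Among all merged sites TCF7L1 of this line overlapped 2.8% to 6.87% and TCF7L2 2.79% to 3.73%. Lists held 3423 peaks per library for β-catenin, 1626 for TCF7L1 and 4131 for TCF7L2, so shares are not comparable between proteins.

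SOX2 and β-catenin occupied SOX2-ON-only sites whether or not TCF or SOX letters were present. In the 159 sites with SOX letters alone, SOX2 overlapped a median of 99.4% and β-catenin 89.3% over the SOX2-ON libraries. In the 104 sites with both kinds of letters the medians were 99% and 95.2%, and in the 38 sites with TCF letters alone 84.2% and 86.8%. In the 55 sites with neither they were 96.4% and 83.6%. Among the 102 SOX2-OFF-only sites with TCF letters alone, β-catenin of the SOX2-OFF libraries overlapped a median of 98%.

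A site index was taken for each library, in percentage points. It was the share of SOX2-ON-only sites that the library overlapped minus its share of SOX2-OFF-only sites. The other proteins were not used to choose the sites, but their SOX2-ON and SOX2-OFF libraries came from the conditions that LEF1 chose them in. The SOX2-TetON part of the comparison is therefore not independent of the choice. Naive ESC minus CEpiLC, outside it, was 93.9 points for β-catenin, 58.9 for SOX2, 68.1 for TCF7L1 and 55.8 for TCF7L2. For β-catenin SOX2-ON had an index of 49.6 ± 10.2, and the others were −78.6 ± 5.59 in SOX2-OFF, 18.7 ± 2.78 in naive ESC and −75.1 ± 10.2 in CEpiLC (SD, n = 3). High minus low SOX2 was 111 points for β-catenin, 86.7 for SOX2, 92.8 for TCF7L1 and 57.8 for TCF7L2. Each had exact permutation p = 0.005 over 400 assignments, the smallest possible, and adjusted p = 0.005 over 4 proteins. SOX2-ON minus SOX2-OFF alone was 128 points for β-catenin, 114 for SOX2, 118 for TCF7L1 and 59.8 for TCF7L2, each with exact permutation p = 0.1, the smallest that line allows. All high-SOX2 libraries of each protein were above all its low-SOX2 libraries of the same line. Without the groups of shared words the values were 101, 74.2, 90.1 and 53.5, with the same p.

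LEF1 of the WT line placed on these sites in the same order, although SOX2 there was not set by Dox. CEpiLC libraries overlapped 84.5%, 96.6% and 93.9% of the SOX2-OFF-only and 21.6%, 18.5% and 10.1% of the SOX2-ON-only sites. Naive ESC libraries overlapped 2.03%, 25.7% and 8.11% of the SOX2-OFF-only and 3.37%, 55.3% and 18.8% of the SOX2-ON-only sites. The index was 13.9 ± 14.4 in naive ESC and −74.9 ± 10.8 in CEpiLC (SD, n = 3). The difference of 88.8 points had exact permutation p = 0.1, the smallest possible. Naive ESC replicate 1, whose TCF letters were at about background, had an index of 1.34. A library with so few overlaps has a small index and lies above the CEpiLC values whatever its LEF1 binding. The order thus rests on the other naive ESC libraries, with indices of 29.7 and 10.7. All 3 CEpiLC libraries overlapped 98.6% of the shared sites.

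**Figure D5:**
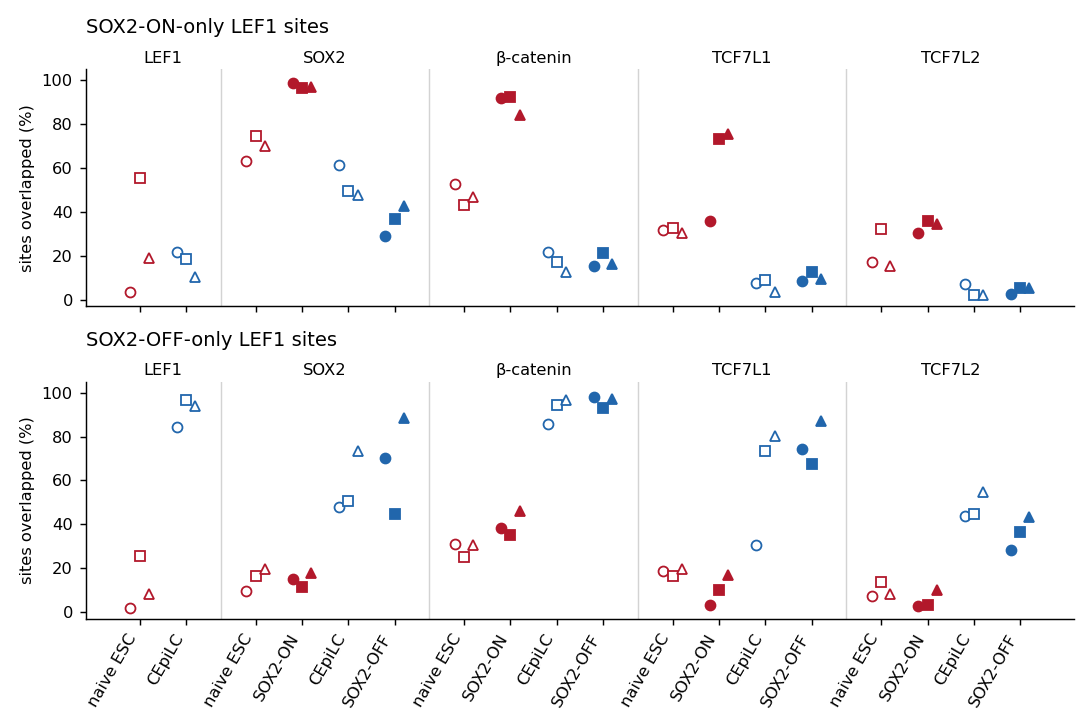
Percent of SOX2-ON-only and of SOX2-OFF-only LEF1 sites overlapped by peaks of each protein, 1 point per library (red high SOX2: open naive ESC, filled SOX2-ON; blue low SOX2: open CEpiLC, filled SOX2-OFF; circle, square and triangle for replicates 1, 2 and 3). SOX2 of SOX2-ON cells lies on 96.6% to 98.6% of SOX2-ON-only sites, and β-catenin of SOX2-OFF cells on 93.2% to 98% of SOX2-OFF-only sites.

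Sites were assigned to genes by locus, the gene body with 50 kb on each side. A SOX2-ON-only site lay in 386 of 21938 protein-coding loci (1.76%), a SOX2-OFF-only site in 230 (1.05%) and a shared site in 237 (1.08%). The lists below are small and long genes have more room for a site, so their counts are read only beside these shares. With 10 kb upstream of the gene body instead, the numbers were 174 and 64. Sites of neither kind gathered at a few genes: the 356 SOX2-ON-only sites had 329 nearest genes, of which 24 had 2 or more sites and Tnfrsf19 had 4, and the 148 SOX2-OFF-only sites had 145.

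Genes of the WNT pathway are described first. Windows are shown for 6 list genes whose differential site a reader may wish to compare with the strongest sites, and for 2 shared sites. They were chr3:131084761-131084861 25.7 kb upstream of Lef1, chr8:88512410-88512510 8.89 kb upstream of Nkd1, chr19:30505684-30505784 43.9 kb downstream of the Dkk1 start, chr8:72316179-72316279 2.8 kb upstream of Klf2 and chr14:118230632-118230732 6.35 kb downstream of the Sox21 start, all between genes, and chr11:87726018-87726118 in an intron within the Rnf43 locus, nearest to the start of Supt4a. The shared sites were chr11:108920391-108920491 at the Axin2 promoter, 92 bp downstream of the start, and chr9:69668836-69668936 between genes 92.1 kb from Foxb1, the shared site with the highest median rank.
Lef1: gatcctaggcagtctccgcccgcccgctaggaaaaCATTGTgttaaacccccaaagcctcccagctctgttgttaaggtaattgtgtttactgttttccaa
Nkd1: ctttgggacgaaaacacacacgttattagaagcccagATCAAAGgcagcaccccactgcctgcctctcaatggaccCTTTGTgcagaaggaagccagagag
Dkk1: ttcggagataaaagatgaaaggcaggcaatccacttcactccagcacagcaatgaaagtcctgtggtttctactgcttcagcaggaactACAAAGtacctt
Klf2: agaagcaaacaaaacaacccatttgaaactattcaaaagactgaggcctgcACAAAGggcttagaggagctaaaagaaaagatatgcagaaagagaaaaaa
Sox21: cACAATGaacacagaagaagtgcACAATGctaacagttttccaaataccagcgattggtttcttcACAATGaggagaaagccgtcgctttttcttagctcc
Rnf43: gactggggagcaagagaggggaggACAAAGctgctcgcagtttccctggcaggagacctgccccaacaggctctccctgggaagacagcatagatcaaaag
Axin2: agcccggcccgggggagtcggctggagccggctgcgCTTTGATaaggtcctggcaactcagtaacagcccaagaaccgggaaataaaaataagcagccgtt
Foxb1: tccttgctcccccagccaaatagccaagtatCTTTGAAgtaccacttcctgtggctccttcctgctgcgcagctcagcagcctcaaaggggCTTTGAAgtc

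Feedback targets are genes that WNT signalling switches on and that mostly damp it again. Of 9 loci, 5 held a shared site: Axin2, a scaffold of the β-catenin destruction complex, Sp5, a repressor, Nkd1, an inhibitor acting on Dishevelled, Notum, an enzyme that inactivates WNT proteins, and Znrf3, a ligase that removes WNT receptors. The Axin2 promoter site had folds of 13, 6.49 and 13 in SOX2-ON and of 12.4, 10.5 and 11.5 in SOX2-OFF, with a TCF match in the window shown above. The Sp5 promoter site, 21 bp from the start, had folds of 23, 9.39 and 18.8 and of 11.6, 5.75 and 22.5. Values of the conditions overlapped at both promoters. A site 31 kb upstream of Sp5 ranked 82, 145 and 59 in SOX2-ON and 701, 122 and 287 in SOX2-OFF, and its ranks overlapped as well.

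Differential sites lay in 3 feedback loci, among them Nkd1, which also held a shared site. At Nkd1 the SOX2-ON-only site ranked 109, 2074 and 89, with folds of 21, 8.53 and 26.8, and the full SOX2-OFF lists held 1 peak, at rank 9031 in replicate 3. At Dkk1, a secreted inhibitor of the WNT co-receptors, the SOX2-ON-only site had folds of 17.5, 18.1 and 29 against 8.26, none and 4.98 in the full SOX2-OFF lists. At Rnf43, a ligase like Znrf3, the SOX2-OFF-only site had folds of 9.63, 6.44 and 8.16 against 6.4, 6.64 and 9.14 in the full SOX2-ON lists. The Rnf43 folds overlapped, and the site was called by rank alone. In CEpiLC, LEF1 lists of equal length held a peak at the Nkd1 site in 1 of 3, at Dkk1 in 2 of 3 and at Rnf43 in 3 of 3. Lgr5, the receptor of R-spondins, and Apcdd1, a membrane inhibitor, held none of the 3 kinds of site, and Dkk1 and Rnf43 held no shared site.

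Of the genes for LEF1, TCF7, TCF7L1, TCF7L2 and β-catenin, the Lef1 locus held a SOX2-ON-only site. It had folds of 11.6, 14.1 and 7.62 in SOX2-ON and no peak in any SOX2-OFF list. Its window carried CATTGT and no TCF match. In the WT line LEF1 lists of equal length held a peak there in 2 of 3 CEpiLC and 2 of 3 naive ESC libraries, so the site was not confined to high SOX2. The Tcf7, Tcf7l1, Tcf7l2 and Ctnnb1 loci held no site of the 3 kinds. The Tcf7l1 locus had 10 and 8 used peaks in replicate 1 of SOX2-ON and SOX2-OFF and at most 1 in the others, beside the exon peaks of replicate 1 given above. Among 10 WNT ligands and receptors, 1 locus held a SOX2-ON-only site: Wnt5b, a ligand, with folds of 11.5, 20.1 and 12.4 near the start of Adipor2. The same locus held a shared site with folds of 17.1, 12.7 and 12.7 and of 8.21, 6.68 and 9.

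Pluripotency and neural loci with a differential site held SOX2-ON-only sites and no SOX2-OFF-only site. These were 2 of 14 naive pluripotency loci, 1 of 9 primed epiblast loci, 1 of 8 neural loci and 0 of 6 core pluripotency loci. Over all protein-coding loci the shares were 1.76% for SOX2-ON-only and 1.05% for SOX2-OFF-only sites. Lists this short would hold few or no SOX2-OFF-only loci at that share, so their absence is not read as a result. Klf2, a naive pluripotency factor, had folds of 15.9, 30.1 and 18.7 in SOX2-ON and no peak in any SOX2-OFF list. The site in the locus of Fgf4, the FGF ligand of naive cells, was weaker, with folds of 7.34, 8.02 and 6.86, and had peaks of 4.1 and 6.36 in full SOX2-OFF lists. Zic5, a zinc finger factor, had folds of 11.1, 20.1 and 12.7, and Sox21, a SOX family factor, had folds of 10.7, 26.2 and 15.4, and neither had a peak in a SOX2-OFF list. The Sox21 window held 3 CATTGT matches. In CEpiLC, LEF1 lists of equal length held a peak at the Zic5 site in 2 of 3 and at the Klf2, Fgf4 and Sox21 sites in 0 of 3.

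In mesoderm lists as short as these, the shares over all loci would give less than 1 locus of either kind. Of 17 primitive streak and mesendoderm loci and 16 caudal epiblast and paraxial mesoderm loci, 0 had a SOX2-ON-only and 0 a SOX2-OFF-only site, while 1 and 2 had a shared site. Numbers of used peaks in a locus, which need not be at the same site, differed in some of them: the Eomes locus held 0, 0 and 0 in SOX2-ON and 2, 2 and 2 in SOX2-OFF, and the T locus 1, 1 and 0 against 3, 2 and 6. The Dll1 locus, of a Notch ligand, went the other way, with 3, 3 and 1 against 0, 0 and 0. These 3 loci were picked out after their values had been seen. In the other loci of these lists the counts of the conditions overlapped or met, as at Nodal, with 1, 2 and 2 in both. The share of all protein-coding loci whose counts do not overlap was not worked out, so these counts are not read as a result. Evx1, a homeobox factor of the primitive streak, had a site 2.1 kb upstream with folds of 14.7, 7.62 and 15.3 in SOX2-ON and of 18.4, 4.91 and 24.6 in SOX2-OFF. At the promoter of Cdx1, a posterior homeobox factor, folds were 17.1, 18.7 and 18.2 and 25.6, 13.9 and 27.7. The Nkx1-2 locus, of a caudal epiblast factor, had a shared site with folds of 11.4, 6.35 and 11.8 and of 12.3, 8.27 and 18.9. At these 3 shared sites the folds of the conditions overlapped.

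Some shared sites ranked high in both conditions. The Foxb1 site, with 2 TCF matches in its window, ranked 24, 4 and 6 in SOX2-ON and 15, 1 and 1 in SOX2-OFF, with folds of 52.3, 55.5 and 59.2 and of 79.2, 56.9 and 154. All libraries of SOX2, β-catenin, TCF7L1 and TCF7L2 in SOX2-ON and SOX2-OFF also had a peak there. Among the 143 shared sites every SOX2-ON rank was above every SOX2-OFF rank in 14 (9.79%), and the reverse held in 35 (24.5%). The remaining shared sites had ranks that overlapped between conditions.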

How the data were processed

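LEF1 ChIP-seq peak lists of 3 SOX2-ON and 3 SOX2-OFF replicates were analysed, with 12 libraries each of SOX2, β-catenin, TCF7L1 and TCF7L2 and 6 WT LEF1 libraries for comparison. The authors used the pipeline nf-core/ChIP-seq, per the published methods: single-end reads of 76 bp were mapped to mm10 by BWA, and MACS2 called narrow peaks at a q-value under 0.05, its default. The lists are per library and were not pooled. Which input served each library is not given in the sources used here. The deposited score is a rounded multiple of the −log10 q-value. The deposited fold is the ratio of summit signal to local background, and −log10 p-values and −log10 q-values, also deposited, refer to the summit. The study compared read counts, which were not used here, so depth is unknown and sites were compared by occupancy.

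Ranks followed the −log10 p-value, and every library of a target was cut to the length of its shortest list: 4443 for LEF1, 20000 (an upper limit) for SOX2, 3423 for β-catenin, 1626 for TCF7L1 and 4131 for TCF7L2. An overlap of 1 bp joined peaks. Letters were searched on both strands of GRCm38 within 100 bp of the summit, and genes came from GENCODE. Python 3.11.15, numpy 2.4.6, pandas 2.3.3, scipy 1.17.1, pysam 0.24.0, samtools 1.23.1 and matplotlib 3.10.9 were used, and scripts were tested on simulated data. Tests were exact permutations over libraries, two-sided except for the Jaccard index, with Benjamini-Hochberg adjustment. The text names list genes whose locus held a differential site, all TCF/LEF genes and WNT feedback targets, and the 5 strongest sites per condition with no peak in a full list of the other condition. Coding exons of Tfap2a, Tfap2c, Tcf7l1 and Tcf7l2 were left out of that ranking. List genes with a shared site and members of the groups of shared words were added after their values had been seen. The members and gene lists were chosen with earlier results of these data known. Alternatives changed the list length, thresholds, overlap, windows and libraries used.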

Additional observations from a re-analysis of the deposited data

Results flagged for a closer look

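The site index of the SOX2 libraries, the share of SOX2-ON-only minus the share of SOX2-OFF-only LEF1 sites that a library overlapped, differed between the lines. SOX2-ON minus SOX2-OFF was 114 points and naive ESC minus CEpiLC was 58.9 points, so the WT contrast was smaller, with a line difference of −55.5 points. Permuting the line labels within each SOX2 level gave exact permutation p = 0.01, and adjusted p = 0.04 over 4 proteins. SOX2 libraries of SOX2-ON cells had the highest index, 82.7 ± 3.02, against 54.3 ± 3.97 in naive ESC (SD, n = 3). The LEF1 sites had been chosen in the SOX2-TetON line, and the part of that choice in the difference was not tested. SOX2-ON and SOX2-OFF differed in Dox and also in cell state. The paper describes SOX2-ON cells as naive-like and SOX2-OFF cells as nearer to an early, anterior primitive streak. Naive ESC and CEpiLC differed in medium and cell state. The line therefore cannot be told apart from the kind of contrast. Line differences of −34.3 for β-catenin, −49.4 for TCF7L1 and −3.99 for TCF7L2 had adjusted p of 0.0667, 0.0667 and 0.74 in the same exact permutation test.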

How the results depend on the processing

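SOX2-ON-only sites numbered 3437 with all deposited peaks, 559 with the shortest of the 6 lists as the common length and 185 with absence asked of the full lists, and 368 to 749 when replicates were left out. SOX2-OFF-only sites numbered 11 with absence asked of the full lists, 55 without the groups of shared words (chosen after seeing the data) and 172 to 426 with replicates left out, which asks fewer libraries to agree. SOX2-ON-only loci numbered 4111 with all deposited peaks, 603 with the shortest of the 6 lists, 174 with 10 kb upstream and 401 to 735 with replicates left out. SOX2-OFF-only loci numbered 362 with all deposited peaks, 64 with 10 kb upstream and 267 to 539 with replicates left out. The moves over 1.5 times came without SOX2-ON replicate 1 (644 sites) or 3 (686) and without SOX2-OFF replicate 1 (250) or 2 (356). The difference in TCF letters ranged from −6.84 to 0.957 with replicates left out, positive at 0.248 without SOX2-OFF replicate 3 and at 0.957 without replicate 3 of both conditions. The log10 number of peaks ranged from −0.0266 (without SOX2-OFF replicate 2) to 0.655. The difference in SOX letters stayed positive in all 16 alternatives, from 1.77 with all deposited peaks to 27. With replicates left out, the index of other proteins ranged from 74.7 to 92.5 for SOX2, 93 to 114 for β-catenin, 69.8 to 101 for TCF7L1 and 45.6 to 59.6 for TCF7L2. Where a replicate number was left out of every condition, a choice made after seeing the data, its exact permutation p was 0.0556, the smallest that 2 against 2 libraries in each line allow. With all deposited peaks the index fell to 37.1, 40.5, 28.8 and 19. Deviations of same-numbered SOX2-ON and SOX2-OFF libraries had correlations of 0.0156, 0.0197 and 0.00678, and those of different numbers had −0.0147 to −0.00155. All were small, but only the same-numbered ones were positive. Replicate 1 of both conditions also shared the exon peaks given above. With the replicate block, a sign-flip test that cannot go below 0.25, exact permutation p was 0.25 for SOX letters and promoters, 0.75 for TCF letters and 0.5 for the log10 number of peaks, and 4 of the other motif families had 1 sign in all same-numbered pairs, against 3 whose conditions did not overlap without it.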
